A study of Mus musculus with 9 samples.

Results

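The genes described here encode the translation initiation and elongation factors of the mouse heart. They were taken by name, as every gene of the deposited table whose symbol begins with Eif or Eef and a digit. Of 67 such genes, the 4 Eif2ak kinases were left out, and the other 63 of the 14011 genes in the table were kept. GENCODE lists 61 of them as protein coding and 2, *Eif3s6-ps2* and *Eif4a-ps4*, as pseudogenes. Older symbols bring in the 4 Argonaute genes, *Eif2c1* to *Eif2c4*, now named Ago1 to Ago4, which act in small RNA silencing and are not initiation factors. All 63 passed the filter on low values that the whole table had passed, a value of 1 or more in 3 or more libraries, and 59 had a mean of 10 or more.

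Initiation begins when eIF2 carries the initiator tRNA to the small ribosomal subunit, to which eIF1, eIF1A, eIF3 and eIF5 also bind. The eIF4 factors bind the cap of the mRNA, unwind its leader and bring it to the loaded subunit, and eIF5B joins the large subunit. Elongation is carried by eEF1A, which delivers aminoacyl tRNAs, by the eEF1B complex, which recharges eEF1A with GTP, and by eEF2, which moves the ribosome along the mRNA. Many of the mRNAs of this machinery carry a 5′ terminal oligopyrimidine (TOP) tract, through which mTOR signaling controls their translation. Heart and skeletal muscle and neurons switch from eEF1A1 to the paralog eEF1A2 as they mature.

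RNA was sequenced from whole mouse hearts at E10.5, in 3 groups of 3 libraries, each from a pool of 6 hearts, with the pool as the replicate. CTCF, a DNA binding protein that organizes chromatin loops, was removed with a floxed *Ctcf* allele and *Nkx2.5-Cre*, a driver active in cardiac progenitors and their derivatives. Homozygotes were *Ctcf* fl/fl; *Nkx2.5-Cre*/+ and heterozygotes *Ctcf* fl/+; *Nkx2.5-Cre*/+. Controls carried no Cre, and their genotype is given as *Ctcf* fl/fl in the sample labels and as *Ctcf* fl/+ in the study's methods. The strain was mixed, all animals carried a floxed allele, and a comparison with controls therefore includes the driver, whereas homozygotes and heterozygotes both carried it. The driver does not delete *Ctcf* in every cell of the heart, since the endocardium keeps the protein. *Ctcf* itself measured 121, 122 and 122 in controls, 101, 94.2 and 97.0 in heterozygotes and 79.6, 80.0 and 84.7 in homozygotes, with no overlap between any of the groups.

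Values are normalized read counts whose sum was close to the same in every library, and all lists of values are in the same order of libraries. Controls come first, with 8457617, 9654014 and 6698891 reads, then heterozygotes with 9896345, 7946683 and 4294537, then homozygote replicates 1, 2 and 3 with 4437234, 6139084 and 11629365. Control and heterozygote libraries are named by their reads because their columns could be tied to a group but not to a numbered sample. One read was worth between 0.0901 and 0.231. Log2 fold changes are given ± SE with limma's adjusted p over all 14011 genes, and a gene was called at an adjusted p under 0.05. Values had 0.5 added before the log2, which makes the changes of low genes look slightly smaller.

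The hearts also differed in their cell type markers. All 6 erythroid markers, hemoglobin genes among them, rose in homozygotes against controls, and their summed value was 31721 to 46209 in controls, 25512 to 43162 in heterozygotes and 56684 to 74974 in homozygotes. The epicardial markers summed to 372 to 429, 389.7 to 420.0 and 496 to 565 in the same order, with 3 of 5 called higher. Of the 8 cardiomyocyte markers, all of them with reads in every library, *Ryr2* and *Nkx2-5* were called lower in homozygotes against controls, and *Myh6*, *Myh7*, *Ryr2* and *Nkx2-5* against heterozygotes, where all 8 had negative log2 fold changes, and the list summed to 16869 to 19214, 19313 to 22328 and 16039 to 18942. Markers of endothelium and endocardium summed to 735 to 839, 726 to 759.9 and 640.0 to 776, and those of cushion mesenchyme to 1361 to 1535, 1309 to 1414 and 895 to 1171. Against controls *Kdr* was called lower and *Emcn* higher among the endothelial markers, and *Postn* and *Vcan* lower among the cushion markers. In whole hearts, a change in the number of cells of a type and a change in RNA per cell cannot be told apart, and the part of erythroid cells in the changes of the translation factor genes was not tested.

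Because a TOP tract lies at the start of the transcript, the 60 bases around the annotated start are shown for 8 genes on which the results turn. The windows run from 30 bases before the start to 30 bases from it, on the strand of the gene, from RefSeq on GRCm38.p6, and capitals mark each unbroken run of at least 8 C or T.
Eef1a1 (chr9:78481695-78481754, minus strand): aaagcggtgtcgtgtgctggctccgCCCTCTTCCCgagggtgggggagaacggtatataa
Eef1a2 (chr2:181156986-181157045, minus strand): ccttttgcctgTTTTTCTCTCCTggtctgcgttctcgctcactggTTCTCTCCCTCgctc
Eef1b2 (chr1:63176801-63176860, plus strand): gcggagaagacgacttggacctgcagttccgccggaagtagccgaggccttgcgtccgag
Eif2s2 (chr2:154892877-154892936, minus strand): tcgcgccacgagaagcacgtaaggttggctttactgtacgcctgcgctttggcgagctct
Eif3f (chr7:108934385-108934444, plus strand): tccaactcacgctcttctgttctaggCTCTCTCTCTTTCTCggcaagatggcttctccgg
Eif3k (chr7:28981859-28981918, minus strand): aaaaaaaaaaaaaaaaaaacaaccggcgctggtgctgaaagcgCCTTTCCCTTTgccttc
Eif3m (chr2:105016998-105017057, minus strand): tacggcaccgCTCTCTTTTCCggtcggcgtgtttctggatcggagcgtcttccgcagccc
Eif1 (chr11:100319919-100319978, plus strand): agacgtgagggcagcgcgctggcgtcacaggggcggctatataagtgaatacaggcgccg
*Eef1a2*, the gene that fell furthest, had 2 such runs in its window, and *Eef1b2*, *Eif2s2* and *Eif1*, which rose, had none. A run was counted anywhere in the window and not only at the start, so a marked run need not be a TOP tract. Whether the annotated starts are the ones used in these hearts was not tested, so a window without a run does not show that a tract is absent. Among the 48 translation factor genes with a promoter in the RefSeq table, 14 (29.2%) held such a run in this window, beside 25.8% of all 27025 genes of that table, a share of about the same size. Of the 7 of them that were called higher in homozygotes against controls, 3 held a run. The remaining 15 genes had no entry, among them *Eif3e*, *Eif3h*, *Eif3i*, *Eef1d*, *Eef1g* and *Eif2c2*.

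Between homozygotes and controls, 16 of the 63 translation factor genes were called (25.4%), beside 15.2% of all genes. Of the 16, 12 rose, where 7.19% of all genes were called higher, and 4 fell, where 8.03% of all genes were called lower. The genes that rose were *Eif1*, *Eif2s2*, *Eif3e*, *Eif3f*, *Eif3h*, *Eif3i*, *Eif3k*, *Eif3m*, *Eif5a*, *Eef1b2*, *Eef1d* and *Eef1g*. Those that fell were *Eef1a2* and the Argonaute genes *Eif2c1*, *Eif2c2* and *Eif2c3*. All 3 homozygote libraries lay above all 3 controls for 21 of the 63 genes and below them for 9, beside 16.6% and 16.5% of all genes. An unadjusted p under 0.05 was reached by 29 of the 63, beside 29.6% of all genes. The median log2 fold change of the 63 genes was 0.079, and that of all genes was -0.0011. In a fit of only the genes with a mean of at least 10, 18 of 59 were called, beside 21.1% of all genes in that fit.

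Each gene that rose gained between 0.20 and 0.32 on the log2 scale, to between 115% and 125% of the control mean, whereas *Eef1a2* fell to 42.6% of the control mean and the 3 Argonaute genes to between 62.6% and 67.5%. Summed over the 63 genes, the values of homozygotes made up 2.67% ± 0.0715 (SD, n = 3) of the library, beside 2.54% ± 0.0518 for controls and 2.54% ± 0.0211 for heterozygotes. *Eef1a1*, which was not called, made up 1521 of the 2657 (57.2%) by which the mean summed value of homozygotes exceeded that of controls. This percentage is of summed values and not of library shares. Whole libraries also summed to more in homozygotes (1009226 to 1047940) than in controls (980313 to 985236). The other 62 genes made up 1.66% ± 0.0286 of the library in homozygotes, 1.63% ± 0.0182 in controls and 1.62% ± 0.0114 in heterozygotes. With the Argonaute genes and the pseudogenes left out, 12 of 57 genes rose and 1, *Eef1a2*, fell. After the trend of the fold changes with gene length was removed, 10 genes were called, 5 higher and 5 lower, beside 10.8% of all genes in the same fit.

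**Figure D1:**
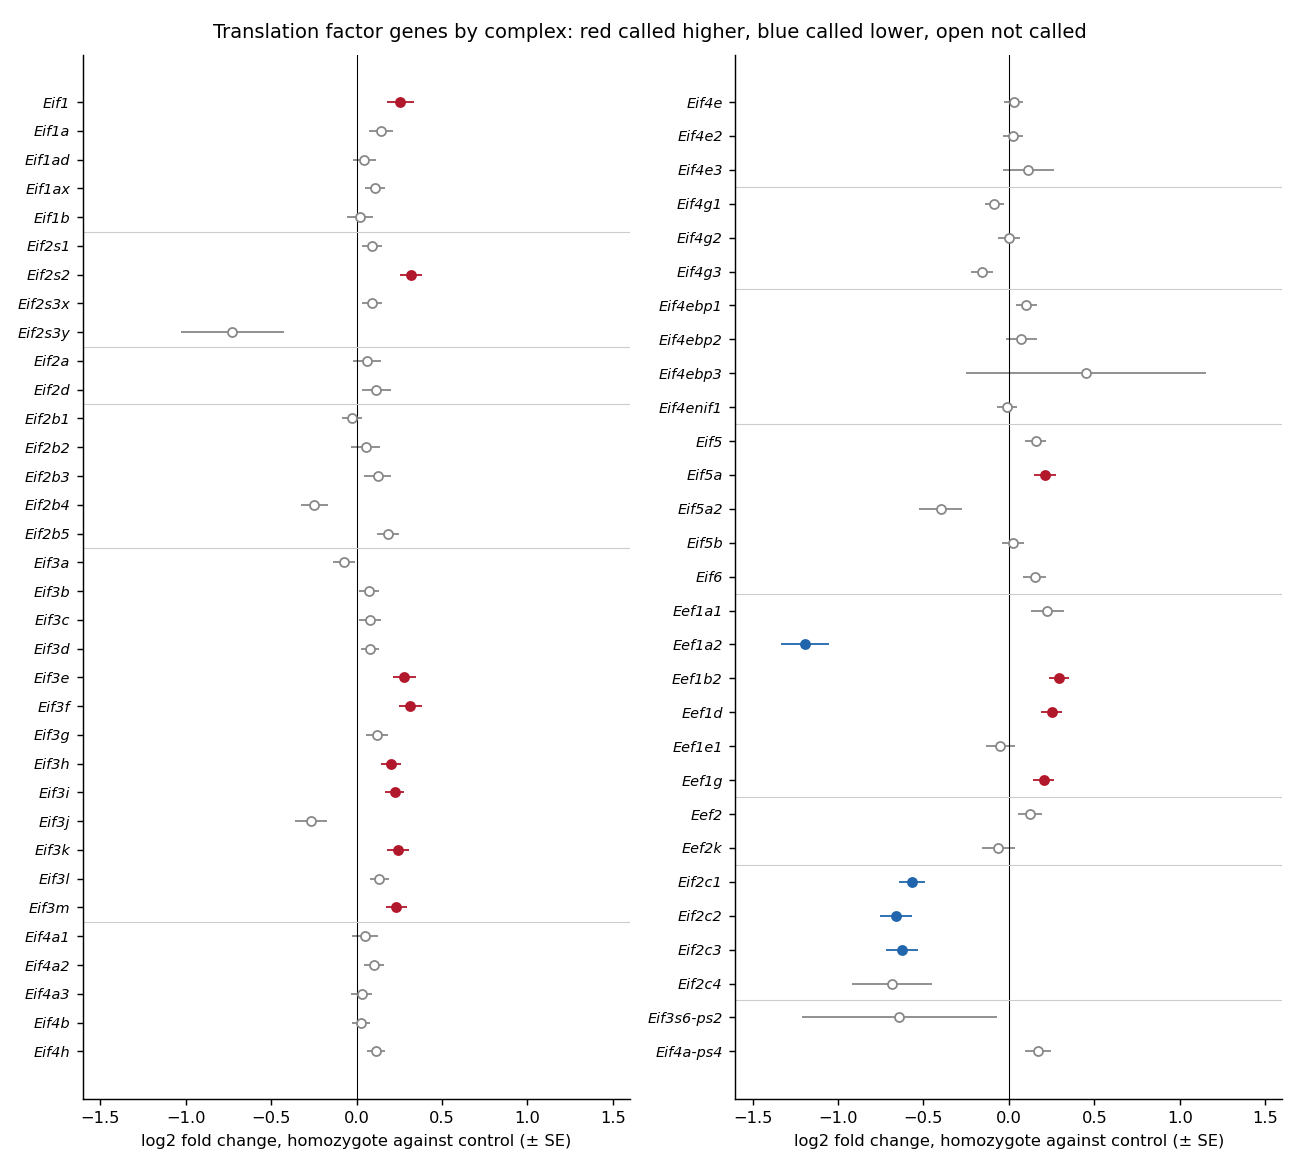
Log2 fold change of each of the 63 translation factor genes between homozygotes and controls (points, with SE as bars, n = 3 libraries a group), ordered by complex with gray lines between complexes. The 12 genes called higher (red) sit between 0.20 and 0.32, while *Eef1a2* and 3 Argonaute genes (blue) sit between -0.57 and -1.19.

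Between homozygotes and heterozygotes, both of which carried the driver, 13 of 63 genes were called (20.6%), beside 13.6% of all genes. The 9 that rose, where 6.87% of all genes were called higher, were *Eif1*, *Eif2s2*, *Eif3e*, *Eif3f*, *Eif3h*, *Eif3i*, *Eif3k*, *Eif5* and *Eef1b2*. The 4 that fell, where 6.7% of all genes were called lower, were *Eef1a2*, *Eif2b4*, *Eif2c1* and *Eif2c2*. All 3 homozygote libraries lay above all 3 heterozygotes for 21 of the 63 genes and below them for 8, beside 15.3% and 15.5% of all genes, and 26 reached an unadjusted p under 0.05, beside 27.6%. In a fit of only the genes with a mean of at least 10, 14 of 59 were called, beside 18.4% of all genes in that fit. This comparison uses the same 3 homozygote libraries as the one with controls, so the 2 sets of values are given side by side and are not independent.

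Between heterozygotes and controls, limma called 0 of the 63 genes, beside 0.143% of all genes. An unadjusted p under 0.05 was reached by 4 of them, beside 7.37% of all genes, and edgeR and DESeq2 on the recovered reads also called 0. All 3 heterozygotes lay above all 3 controls for 3 of the 63 and below them for 3, beside 7.41% and 6.93% of all genes.

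Among the factors that scan for the start codon, *Eif1* rose. It encodes eIF1, which keeps the scanning subunit from settling on a wrong codon, and measured 416, 421 and 353 in controls, 369, 369.9 and 394 in heterozygotes and 436, 463 and 519.9 in homozygotes. All homozygote libraries lay above the other 6, and the log2 fold change was 0.25 ± 0.079 (adjusted p = 0.0437) against controls and 0.32 ± 0.079 (adjusted p = 0.0169) against heterozygotes. The call against controls was lost in 12 of 20 alternatives, with an adjusted p of 0.186 without the control library of 6698891 reads. The paralog *Eif1b* was not called, at 0.019 against controls (adjusted p = 0.9). The eIF1A genes *Eif1a* and *Eif1ax* and the related *Eif1ad* had log2 fold changes of 0.14, 0.11 and 0.045, with adjusted p from 0.199 to 0.708. *Eif1* shares a near-identical stretch with *Emd*, whose value of 60.4 to 70.5 was well below that of *Eif1*.

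Of the 4 genes for eIF2, the carrier of the initiator tRNA, 1 was called, that for the beta subunit, beside 15.2% of all genes. *Eif2s2* (chr2:154697146-154718671 on NCBIM37) measured 275, 258 and 272 in controls, 268, 276 and 273 in heterozygotes and 302, 361 and 341 in homozygotes. The homozygote libraries were all above the other 6, with log2 fold changes of 0.32 ± 0.065 (adjusted p = 0.00624) and 0.29 ± 0.065 (adjusted p = 0.0106) against controls and heterozygotes. The alpha subunit gene *Eif2s1*, whose product the stress kinases phosphorylate, gave 0.090 against controls (adjusted p = 0.351), and the groups overlapped.

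The gamma subunit is encoded by a pair of sex-linked paralogs. *Eif2s3x*, on the X chromosome, measured 381, 335 and 357 in controls, 375, 372 and 369 in heterozygotes and 368, 376 and 396 in homozygotes. Its Y-linked copy *Eif2s3y* measured 21.4, 42.5 and 35.5 in controls, 16.0, 29.1 and 29.9 in heterozygotes and 17.1, 30.2 and 13.3 in homozygotes. Neither was called, with 0.089 ± 0.058 (adjusted p = 0.338) for *Eif2s3x* and -0.73 ± 0.30 (adjusted p = 0.124) for *Eif2s3y*. *Eif2s3y* was the most variable of the 59 genes with a mean of at least 10, with a coefficient of variation of 32.6%, 31.1% and 43.9% within the groups, beside medians of 4.65%, 4.09% and 5.45% over the 59. The 4 Y-linked genes together summed to 87.3 to 129 in controls, 52.0 to 106 in heterozygotes and 42.7 to 99.3 in homozygotes. The part of this difference in *Eif2s3y* was not tested.

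Both genes for other carriers of initiator tRNA, *Eif2a* and *Eif2d*, overlapped between groups. *Eif2a* had the higher value and measured 84.4, 79.1 and 87.3 in controls, 72.7, 80.0 and 85.7 in heterozygotes and 79.6, 87.4 and 95.5 in homozygotes.

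eIF2B recharges eIF2 with GTP and is the step at which the stress kinases act. Of its 5 subunit genes, none was called between homozygotes and controls, and *Eif2b4*, for the delta subunit, was called lower between homozygotes and heterozygotes, beside 15.2% and 13.6% of all genes called. It measured 37.2, 38.3 and 35.2 in controls, 36.2, 41.7 and 40.3 in heterozygotes and 29.9, 31.9 and 31.2 in homozygotes, with every homozygote library below the other 6. Its log2 fold change was -0.34 ± 0.080 (adjusted p = 0.0138) against heterozygotes and -0.25 ± 0.080 (adjusted p = 0.0523) against controls. *Eif2b4* overlaps *Snx17*, which had the higher value of 94.4 to 108 and shares 204 identical bases with it, so reads from that stretch could have been assigned to either gene. *Eif2b5*, for the catalytic epsilon subunit and the highest of the 5, measured 91.9, 93.8 and 82.4 in controls, 93.3, 87.5 and 93.1 in heterozygotes and 101, 98.2 and 105 in homozygotes, above all controls and all heterozygotes in every homozygote library, and was not called (0.18 ± 0.064, adjusted p = 0.0717 and 0.15 ± 0.064, adjusted p = 0.143).

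eIF3 is the largest complex of the set. This scaffold of 13 subunits holds the small subunit open for the mRNA, and 6 of its 13 genes rose in homozygotes against controls, *Eif3e*, *Eif3f*, *Eif3h*, *Eif3i*, *Eif3k* and *Eif3m*, beside 7.19% of all genes, while none fell. All of these but *Eif3i* belong to the octamer, the core made of subunits a, c, e, f, h, k, l and m. The median log2 fold change of the 13 was 0.13, and 8 of the 13 had all homozygote libraries above all controls, beside 16.6% of all genes. Against heterozygotes, 5 of 13 rose, beside 6.87%. This count was 3 with the length trend removed, beside 11.3% of all genes called. It was 2, *Eif3e* and *Eif3f*, in limma without the mean-variance trend (7.59% of all genes) and with the column number as a replicate block (11.1%). The same 2 were called without the heterozygote library of 7946683 reads (8.97%), without that of 4294537 (8.73%) and without the homozygote library of 11629365 (7.3%). Against controls, *Eif3f* and *Eif3i* were the 2 called with the trend of fold change with gene length removed, beside 10.8% of all genes. In that fit the median was 0.056, and *Eif3h* and *Eif3k* gave 0.075 and 0.094. Without the homozygote library of 11629365 reads 1 of the 13 was called, without the control library of 6698891 reads 2, and in limma without the mean-variance trend 1. In those fits 9.04%, 7.49% and 8.54% of all genes were called, so 1 of 13 was about the share of all genes.

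The gene for subunit f, *Eif3f* (chr7:116077931-116086465), rose furthest of the 13. It measured 190.1, 198 and 168 in controls, 180.3, 181 and 182 in heterozygotes and 222, 225 and 246 in homozygotes, with the homozygotes above the other 6 libraries, and its log2 fold change was 0.32 ± 0.066 (adjusted p = 0.00679) against controls and 0.34 ± 0.066 (adjusted p = 0.00439) against heterozygotes. *Eif3e*, whose product binds the cap-binding side of the machinery, measured 263, 261 and 252 in controls, 250.2, 248 and 258 in heterozygotes and 281, 332 and 331 in homozygotes. Its homozygote libraries were again the highest 3 of the 9, at 0.28 ± 0.065 (adjusted p = 0.0117) and 0.32 ± 0.065 (adjusted p = 0.0071), although homozygote replicate 1 was well below the other 2.

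The other genes of the octamer that rose did so by less. *Eif3h* measured 225, 235 and 217 in controls, 228, 219 and 219 in heterozygotes and 249, 250.1 and 280.4 in homozygotes. *Eif3k*, for the small subunit at the rim of the octamer, measured 122, 128 and 118 in controls, 127, 122 and 123 in heterozygotes and 149, 133 and 154 in homozygotes. *Eif3m* measured 174, 165 and 167 in controls, 176, 161 and 184 in heterozygotes and 187, 206 and 203 in homozygotes. For all 3 genes the homozygotes lay above the other libraries, and against controls the log2 fold changes were 0.20 ± 0.060 (adjusted p = 0.0373) for *Eif3h*, 0.24 ± 0.063 (adjusted p = 0.0214) for *Eif3k* and 0.23 ± 0.063 (adjusted p = 0.0242) for *Eif3m*. Against heterozygotes, *Eif3h* and *Eif3k* were called (0.22 ± 0.060, adjusted p = 0.0248 and 0.23 ± 0.063, adjusted p = 0.0309) and *Eif3m* was not (0.19 ± 0.063, adjusted p = 0.059).

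Subunits a, c and l are the members of the octamer whose genes were not called, so 5 of 8 were, beside 7.19% of all genes called higher. *Eif3a*, for the largest subunit and the eIF3 gene with the highest value, measured 603, 552 and 649 in controls, 594, 617 and 616 in heterozygotes and 546, 607 and 559.6 in homozygotes, with overlapping groups and a log2 fold change of -0.073 ± 0.067 (adjusted p = 0.51). *Eif3c* gave 0.079 against controls (adjusted p = 0.443) and *Eif3l* 0.13 (adjusted p = 0.13).

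Outside the octamer, *Eif3i* rose. With *Eif3b* and *Eif3g* it forms a module at the edge of the complex, and it measured 163, 163 and 166 in controls, 166, 165 and 170.1 in heterozygotes and 182, 191 and 203 in homozygotes. The 3 homozygote values were all above the other 6, which lay within 163 and 170 (log2 fold change 0.22 ± 0.055, adjusted p = 0.0147 against controls and 0.20 ± 0.055, adjusted p = 0.0304 against heterozygotes). *Eif3b* and *Eif3g* gave 0.071 and 0.12 against controls, and *Eif3d*, for the subunit that can itself bind a cap, gave 0.079, all 3 with adjusted p of at least 0.237.

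The gene for the loosely bound subunit j was not called. *Eif3j* had homozygote values below all controls, at -0.27 ± 0.093 (adjusted p = 0.0679) against controls, but they overlapped the heterozygote values (-0.039, adjusted p = 0.828). A near-identical copy of it, *Gm9781*, with 99.4% identity over 2377 bases, measured 99.6 to 112 in controls, 103 to 105 in heterozygotes and 107 to 123 in homozygotes. Summed, the pair measured 150.1 to 167 in controls, 147 to 155 in heterozygotes and 149 to 171 in homozygotes, so the pair as a whole overlapped between groups, and how the authors' counting split reads between them could not be seen.

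Per kilobase of exon, the eIF3 genes lay within 1 order of magnitude of each other in controls apart from *Eif3j*, from 44.3 per kilobase for *Eif3i* to 180.1 for *Eif3h*, with *Eif3j* at 9.45. *Eif3a*, *Eif3c*, *Eif3g*, *Eif3k* and *Eif3l* lay between 106 and 116. Of the genes that rose, *Eif3h* and *Eif3e* had the highest values per kilobase, *Eif3k* lay among the genes named above, and *Eif3m*, *Eif3f* and *Eif3i* lay at 65.1, 64.1 and 44.3, above *Eif3j* alone. The kilobases count every annotated exon of a gene over all its transcripts, so this order depends in part on the annotation.

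**Figure D2:**
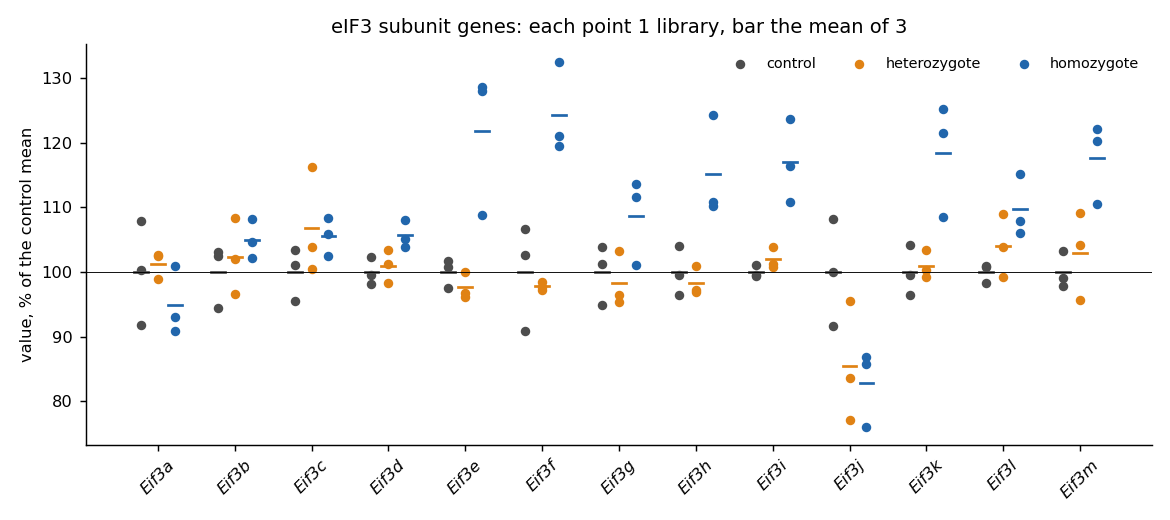
Value of each of the 13 eIF3 genes in each of the 9 libraries, as a percentage of the gene's control mean (vertical axis), with points for libraries and bars for the mean of 3. For *Eif3e*, *Eif3f*, *Eif3h*, *Eif3i*, *Eif3k* and *Eif3m* the 3 homozygote points (blue) lie above all control (gray) and heterozygote (orange) points, and for *Eif3a*, *Eif3b* and *Eif3c* the groups overlap.

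None of the genes for the eIF4A, eIF4B and eIF4H proteins (5 genes), cap binding (3), eIF4G (3) and the eIF4E binding and transport proteins (4) was called in any comparison, beside 15.2% of all genes against controls and 13.6% between homozygotes and heterozygotes, although *Eif4g1* was called lower against heterozygotes under quantile normalization. The helicase eIF4A is encoded by *Eif4a1* and *Eif4a2*, and *Eif4a3* encodes the related helicase of the exon junction complex. *Eif4a1* measured 896, 867 and 928 in controls, 964, 849 and 896 in heterozygotes and 836, 989.8 and 966 in homozygotes. *Eif4a2* measured 321, 324 and 317 in controls, 341, 315 and 340.4 in heterozygotes and 347, 366 and 321 in homozygotes. *Eif4a3* measured 127, 139 and 130.2 in controls, 139.7, 123 and 131 in heterozygotes and 134, 134 and 136 in homozygotes. The groups overlapped for all 3, with log2 fold changes of 0.050, 0.10 and 0.031 against controls (adjusted p from 0.28 to 0.784). *Eif4a1* and the pseudogene *Eif4a-ps4*, which measured 268, 291 and 268 in controls, 305, 338 and 349 in heterozygotes and 349.8, 283 and 302 in homozygotes, share near-identical sequence, and their sum was 1158 to 1196 in controls, 1187 to 1269.6 in heterozygotes and 1186 to 1272 in homozygotes. The helper genes *Eif4b* and *Eif4h* gave 0.027 and 0.11.

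The cap is bound by eIF4E. *Eif4e* measured 177, 190.1 and 189 in controls, 181, 185 and 195 in heterozygotes and 182, 194 and 191 in homozygotes. Its repressive paralog *Eif4e2* measured 109.9, 107 and 109.6 in controls, 118, 111 and 107 in heterozygotes and 107, 109.6 and 116 in homozygotes. *Eif4e3* measured 9.25, 7.27 and 9.28 in controls, 7.90, 7.38 and 8.65 in heterozygotes and 8.29, 9.90 and 9.77 in homozygotes. None of these 3 genes separated the groups, and their adjusted p lay between 0.663 and 0.841.

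The eIF4G proteins join the cap-binding protein to eIF3. *Eif4g1* measured 676, 655 and 679 in controls, 639, 696 and 664 in heterozygotes and 647, 637 and 611 in homozygotes. *Eif4g2*, the highest of the 3, whose product lacks the region that binds eIF4E, measured 1643, 1635 and 1549 in controls, 1551, 1570.2 and 1587 in heterozygotes and 1506, 1653 and 1681 in homozygotes. *Eif4g3* measured 150.1, 155 and 140.1 in controls, 143, 136 and 145 in heterozygotes and 143, 133 and 124 in homozygotes. All 3 homozygote values of *Eif4g1* lay below all 3 controls, but by only -0.085 ± 0.055 (adjusted p = 0.335), and *Eif4g2* and *Eif4g3* gave 0.0029 ± 0.065 (adjusted p = 0.983) and -0.16 ± 0.065 (adjusted p = 0.126).

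The 4E binding proteins, which block eIF4E until mTOR phosphorylates them, are encoded by 3 genes. *Eif4ebp1* measured 85.0, 91.8 and 85.6 in controls, 88.7, 89.9 and 85.0 in heterozygotes and 92.3, 90.8 and 98.7 in homozygotes. *Eif4ebp2* measured 65.01, 53.5 and 64.2 in controls, 53.4, 57.1 and 64.0 in heterozygotes and 59.8, 65.4 and 66.5 in homozygotes. *Eif4ebp3* measured 4.36, 0.559 and 1.53 in controls, 3.87, 4.60 and 0.115 in heterozygotes and 2.16, 1.61 and 4.28 in homozygotes, with between 0 and 47 reads a library, too few to place it. The transporter gene *Eif4enif1* measured 87.8, 88.1 and 93.3 in controls, 88.1, 95.6 and 91.0 in heterozygotes and 86.9, 88.6 and 91.8 in homozygotes. Log2 fold changes against controls were 0.10, 0.073, 0.45 and -0.010 in this order, none with an adjusted p below 0.288.

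Among the late factors, which act at subunit joining and beyond, *Eif5a* rose. It encodes eIF5A, the hypusine-carrying protein that keeps ribosomes moving over difficult stretches, and measured 797, 764 and 712 in controls, 749.8, 789 and 775 in heterozygotes and 868, 837 and 927 in homozygotes. The homozygotes were the highest 3 libraries, and the log2 fold change was 0.21 ± 0.062 (adjusted p = 0.0357) against controls and 0.19 ± 0.062 (adjusted p = 0.0668) against heterozygotes. Under quantile normalization it was 0.051 against controls (adjusted p = 0.596), and the call against controls was lost in 10 of 20 alternatives, among them 5 of the 9 left-out libraries. Its paralog *Eif5a2* moved the other way in value and was not called. *Eif5a2* measured 33.6, 36.5 and 41.3 in controls, 35.0, 31.7 and 37.9 in heterozygotes and 22.6, 29.0 and 33.2 in homozygotes, all 3 homozygotes below all 3 controls, with -0.40 ± 0.13 (adjusted p = 0.0503) against controls and -0.31 ± 0.13 (adjusted p = 0.127) against heterozygotes. In controls *Eif5a* had 319 per kilobase of exon and *Eif5a2* 7.44. The hypusine enzymes were not called (*Dhps* 0.0052 and *Dohh* 0.30 against controls).

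*Eif5*, for the factor that triggers GTP hydrolysis on eIF2, was called between homozygotes and heterozygotes and not between homozygotes and controls. It measured 464, 442 and 415 in controls, 419, 412 and 443 in heterozygotes and 462, 505 and 507 in homozygotes, and the homozygotes lay above all heterozygotes (0.21 ± 0.062, adjusted p = 0.038) but overlapped the controls by 1 library (0.16 ± 0.062, adjusted p = 0.101). The call against heterozygotes was lost in 9 of 20 alternatives, among them quantile normalization (adjusted p = 0.147), limma without the mean-variance trend (adjusted p = 0.111) and each of 6 of the 9 left-out libraries. *Eif5b* and *Eif6*, for the subunit joining factor and the factor that holds the large subunit apart, gave 0.026 and 0.15 against controls and were not called.

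The highest values of the set were those of the elongation factor genes *Eef1a1* and *Eef2*. Other elongation factor genes were lower, with means over the 9 libraries of 206 for *Eef1d*, 37.1 for *Eef1e1*, 28.1 for *Eef2k* and 19.4 for *Eef1a2*. *Eef1g*, at 952, lay below the initiation factor gene *Eif4g2*, at 1597. *Eef1a1* alone made up 36.7% of the summed value of the 63 genes, and *Eef2* 8.76%. Per kilobase of exon, *Eef1a1* stood at 3595, *Eef2* at 705, *Eef1g* at 347 and *Eef1a2* at 11.7 in controls.

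*Eef1a2*, for the eEF1A of mature muscle and neurons, fell further than any other gene of the set. It lies at chr2:180882358-180891719 and measured 21.9, 24.6 and 26.5 in controls, 26.8, 24.7 and 18.8 in heterozygotes and 10.1, 11.6 and 9.41 in homozygotes. Each homozygote library was below all of the other 6, and the log2 fold change was -1.19 ± 0.14 (adjusted p = 0.000116) against controls and -1.13 ± 0.14 (adjusted p = 0.000252) against heterozygotes. The counts behind these values were 181 to 241 reads in controls, 81 to 273 in heterozygotes and 44 to 104 in homozygotes. *Eef1a1* (chr9:78326256-78336958) measured 8868, 9359.8 and 8657 in controls, 9027, 9226 and 8985 in heterozygotes and 9921, 10375 and 11151 in homozygotes. The homozygote values were the highest 3, but the log2 fold change of 0.23 ± 0.096 (adjusted p = 0.136) against controls and of 0.21 ± 0.096 (adjusted p = 0.185) against heterozygotes did not pass limma's test. On the recovered reads, edgeR gave 0.23 with an adjusted p of 0.0422 and DESeq2 0.23 with an adjusted p of 0.00166, while quantile normalization turned the sign, to -0.14.

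As a ratio within each library, *Eef1a2* to *Eef1a1* stood at a log2 of -9.92 ± 0.20 (SD, n = 3) for homozygotes, -8.50 ± 0.16 for controls and -8.58 ± 0.25 for heterozygotes. The difference of -1.42 between homozygotes and controls gave p = 0.1 in a two-sided exact permutation test, the smallest that 3 against 3 can give, and that of -1.33 to heterozygotes also gave p = 0.1. Per length, *Eef1a2* made up 0.324% ± 0.0365 of the pair in controls, 0.308% ± 0.0532 in heterozygotes and 0.119% ± 0.0165 in homozygotes.

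*Eef1a2* is also a marker of neurons and skeletal muscle, so markers of these tissues were read beside it. The 4 of them in the table summed to 19.6 to 23.0 in controls, 18.7 to 27.0 in heterozygotes and 31.2 to 31.8 in homozygotes. *Tubb3*, which made up most of this sum, was called higher in homozygotes, with log2 fold changes of 0.63 ± 0.14 (adjusted p = 0.00989) against controls and 0.45 ± 0.14 (adjusted p = 0.0485) against heterozygotes. *Stmn2*, *Ckm* and *Elavl3* were not called, at 0.33, 0.63 and -0.24 against controls. The part of these tissues in the change of *Eef1a2* was not tested. *Myod1* and *Myog* were not in the table. The 5 genes whose values followed *Eef1a2* most closely over the 9 libraries were *Lrrk2*, *Fam196b*, *Flrt3*, *Parm1* and *Slitrk5*, with Pearson's r from 0.97 to 0.98. These correlations describe 9 libraries of 3 groups, and each of the 5 genes had a lower mean in homozygotes than in either other group, as *Eef1a2* did.

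The eEF1B complex, which exchanges GDP for GTP on eEF1A, rose in homozygotes against controls, with the genes for all 3 of its subunits called, beside 7.19% of all genes called higher. *Eef1b2* alone was called without the control library of 6698891 reads, without the homozygote library of 11629365 and in limma without the mean-variance trend. In those fits 7.49%, 9.04% and 8.54% of all genes were called. The call of *Eef1g* against controls was lost in 12 of 20 alternatives. *Eef1b2* (chr1:63223399-63227060) measured 631, 649 and 582 in controls, 600.5, 597 and 611 in heterozygotes and 745, 742 and 798 in homozygotes. *Eef1d* measured 199, 195 and 174 in controls, 204, 204 and 200.1 in heterozygotes and 219, 222 and 234 in homozygotes. *Eef1g* measured 913, 950.0 and 846 in controls, 922, 921 and 903 in heterozygotes and 1019, 993 and 1105 in homozygotes. In each case all homozygote libraries stood above the other 6. Against controls the log2 fold changes were 0.30 ± 0.059 (adjusted p = 0.00524) for *Eef1b2*, 0.25 ± 0.060 (adjusted p = 0.0132) for *Eef1d* and 0.20 ± 0.064 (adjusted p = 0.0475) for *Eef1g*. Against heterozygotes, *Eef1b2* was called (0.34 ± 0.059, adjusted p = 0.00271), and *Eef1d* and *Eef1g* were not (0.15 ± 0.060, adjusted p = 0.114 and 0.18 ± 0.064, adjusted p = 0.0771). *Eef1e1*, whose product sits in the tRNA synthetase complex, gave -0.051. The median of the 6 eEF1 genes was 0.21 against controls, and under quantile normalization it was -0.0056, with *Eef1b2* and *Eef1d* still called higher.

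*Eef2*, for the translocase, measured 2137, 2210.4 and 2204 in controls, 2170.3, 2401 and 2162 in heterozygotes and 2346, 2293 and 2496 in homozygotes. Its homozygote values were above all controls but overlapped the heterozygotes, and it was not called (0.12 ± 0.070, adjusted p = 0.272 and 0.084 ± 0.070, adjusted p = 0.475). *Eef2k*, for the kinase that switches eEF2 off, gave -0.062 against controls and overlapped between groups.

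**Figure D3:**
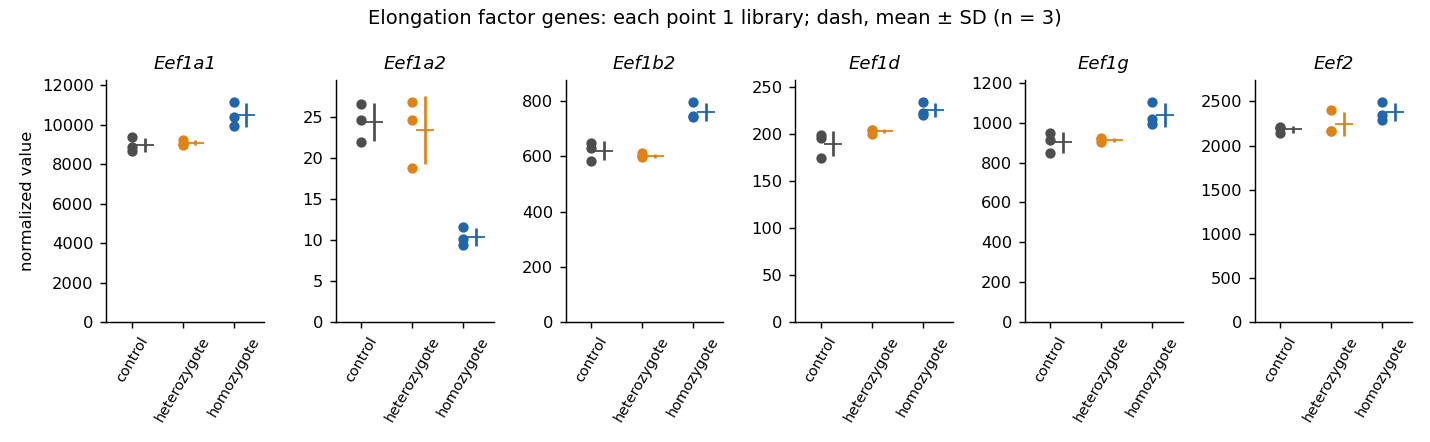
Normalized value (vertical axes, from 0, 1 scale per gene) of 6 elongation factor genes in each library of the 3 groups, with points for libraries and dashes with bars for the mean ± SD (n = 3). Homozygotes lie above the other groups for *Eef1a1*, *Eef1b2*, *Eef1d* and *Eef1g* and below them for *Eef1a2*, at 9.41 to 11.6 against 18.8 to 26.8.

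A list of known TOP mRNAs was written from general knowledge, but with earlier results of these data known, so its counts are a description only. It holds 9 genes of the set: *Eef1a1*, *Eef1b2*, *Eef1d*, *Eef1g*, *Eef2*, *Eif3e*, *Eif3f*, *Eif3h* and *Eif4b*. Of these 9, 6 rose in homozygotes against controls, beside 7.19% of all genes, and 8 had all homozygote libraries above all controls, beside 16.6%, with a median of 0.23, whereas *Eif4b* gave 0.027. Against heterozygotes, 4 of the 9 rose, beside 6.87%. Against controls, 3 of the 9 were called with the length trend removed, beside 10.8% of all genes. Only 2, *Eif3f* and *Eef1b2*, were called without the control library of 6698891 reads, without the homozygote library of 11629365 and in limma without the mean-variance trend. In those fits 7.49%, 9.04% and 8.54% of all genes were called. Of the 5 with a promoter entry, *Eef1a1*, *Eef2* and *Eif3f* held a pyrimidine run in the window around the start, and *Eef1b2* and *Eif4b* did not.

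The Argonaute genes, which bind microRNAs, were lower in homozygotes. Of the 4, 3 were called lower against controls, beside 8.03% of all genes, and all 4 had every homozygote library below every control, beside 16.5%. *Eif2c1* (chr4:126112256-126145878), for Ago1, measured 69.7, 68.2 and 75.1 in controls, 72.9, 68.8 and 72.5 in heterozygotes and 47.1, 43.4 and 53.1 in homozygotes. Its heterozygotes overlapped the controls and all homozygotes lay below both, with log2 fold changes of -0.57 ± 0.078 (adjusted p = 0.000458) against controls and -0.58 ± 0.078 (adjusted p = 0.000541) against heterozygotes. *Eif2c2* (chr15:72932055-73015377), for Ago2, the Argonaute that cuts its target, was the highest of the 4 and measured 124, 118 and 158 in controls, 99.3, 112 and 112 in heterozygotes and 83.9, 85.2 and 81.2 in homozygotes. Here the heterozygotes lay between the other groups with no overlap, and the log2 fold change was -0.66 ± 0.092 (adjusted p = 0.000534) against controls, -0.37 ± 0.092 (adjusted p = 0.0191) against heterozygotes and -0.29 ± 0.092 (adjusted p = 0.453) between heterozygotes and controls.

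*Eif2c3*, for Ago3, measured 30.8, 27.7 and 28.1 in controls, 19.9, 21.6 and 23.2 in heterozygotes and 18.7, 17.9 and 19.0 in homozygotes. All heterozygotes and all homozygotes lay below all controls, at -0.63 ± 0.094 (adjusted p = 0.000859) for homozygotes against controls, -0.21 ± 0.094 (adjusted p = 0.158) against heterozygotes and -0.41 ± 0.094 (adjusted p = 0.176) for heterozygotes against controls, of which only the first was called. *Eif2c4*, for Ago4, measured 3.78, 2.39 and 3.73 in controls, 3.97, 2.96 and 2.88 in heterozygotes and 1.70, 1.95 and 1.85 in homozygotes, with 7 to 40 reads a library. Its homozygotes were below the other 6 libraries, but at -0.68 ± 0.23 (adjusted p = 0.0637) and -0.68 ± 0.23 (adjusted p = 0.0689) it was not called. Summed, the 4 genes measured 217 to 264 in controls, 196 to 211 in heterozygotes and 148 to 155 in homozygotes, with no overlap between any of the groups.

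On NCBIM37, *Eif2c3*, *Eif2c1* and *Eif2c4* lie side by side on the minus strand of chromosome 4, with 5455 and 20906 bases between them and 0 other coding genes in the gaps. *Eif2c3* spans chr4:126008948-126106800 and *Eif2c4* spans chr4:126166785-126210716, while *Eif2c2* lies on chromosome 15. By value, the order of groups differed along the cluster, with heterozygotes at the level of controls for *Eif2c1*, at a log2 fold change of 0.010, and below them for its neighbor *Eif2c3*. Neither gene was called between heterozygotes and controls, and a difference between the neighbors was not tested.

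**Figure D4:**
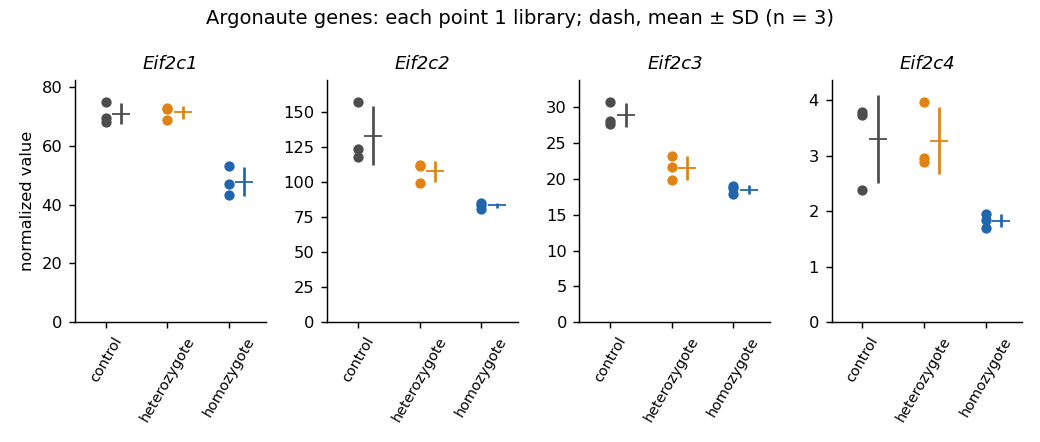
Normalized value (vertical axes, from 0, 1 scale per gene) of the 4 Argonaute genes in each library, with points for libraries and dashes with bars for the mean ± SD (n = 3). Homozygotes (blue) lie below all other libraries for all 4 genes, and heterozygotes (orange) lie between the groups for *Eif2c2* and *Eif2c3*.

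By median exonic length, the genes that rose were shorter than those that fell. Exonic length here is the union of all annotated exons of a gene, which can exceed the length of its main mRNA. The median exonic length was 2561 bases for the 12 genes called higher, 8149.5 bases for the 4 called lower and 3209 bases for the 47 not called, beside 3669 bases over all annotated genes. *Eef1a2*, with 2084 bases, was the short exception among those that fell, and *Eif2s2* and *Eef1d*, with 6755 and 5897 bases, were the long ones among those that rose. With the trend of fold change with length removed, *Eif2s2*, *Eif3f*, *Eif3i*, *Eef1b2* and *Eef1d* were still called higher, and *Eef1a2*, *Eif2c1*, *Eif2c2* and *Eif2c3* still lower, while *Eif2b4* was added.

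**Figure D5:**
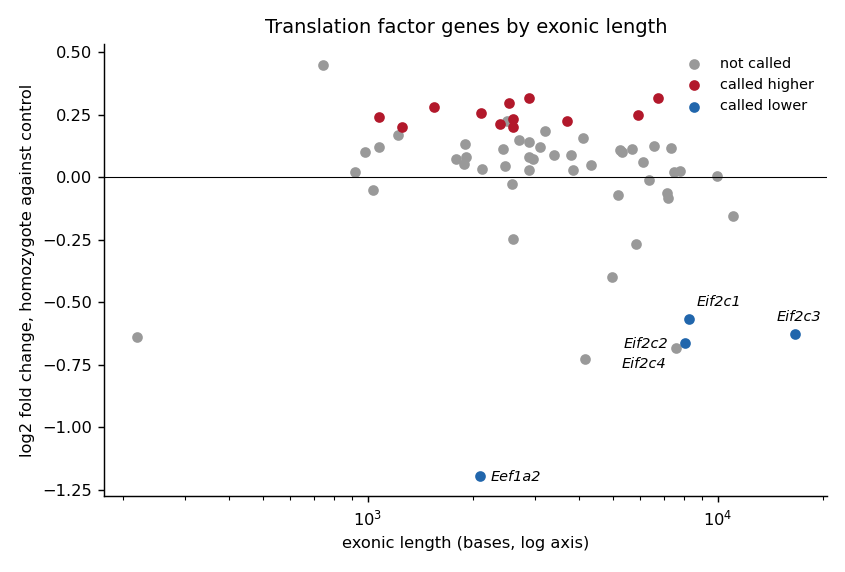
Log2 fold change between homozygotes and controls (vertical axis) against exonic length on a log axis for the 63 translation factor genes. Genes called higher (red) lie mostly between 1074 and 3702 bases, the 3 called Argonaute genes (blue) lie between 8031 and 16571 bases, and *Eef1a2* lies at 2084 bases.

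Other genes of the translation pathway were called about as often as all genes. Of 49 other translation genes on lists of release factors, poly(A) binding proteins, helicases, hypusine enzymes, stress kinases, mTOR inputs and mitochondrial factors, 3 rose and 4 fell in homozygotes against controls (14.3%, beside 15.2% of all genes). None of the 9 genes for termination, recycling and reinitiation and none of the 9 inputs from mTOR and MAP kinases were called against controls, with 1 and 3 of them at an unadjusted p under 0.05, beside 29.6% of all genes. Against heterozygotes *Mtor*, for the kinase itself, was called lower, at -0.36 ± 0.081 (adjusted p = 0.0122), beside -0.24 ± 0.081 (adjusted p = 0.0585) against controls.

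Of 8 genes on a list of eIF2 kinases, phosphatase subunits and stress targets, 2 rose in homozygotes against controls, beside 7.19% of all genes. *Atf4*, for the transcription factor translated when eIF2 is phosphorylated, measured 191, 179 and 159.7 in controls, 164, 188 and 183 in heterozygotes and 236, 244 and 278 in homozygotes. *Ppp1r15a*, for the phosphatase subunit that reverses the phosphorylation, measured 37.0, 30.3 and 28.3 in controls, 30.8, 35.1 and 32.4 in heterozygotes and 42.1, 42.6 and 50.7 in homozygotes. In both, all homozygotes lay above the other 6 libraries, at 0.52 ± 0.081 (adjusted p = 0.00118) and 0.50 ± 0.11 (adjusted p = 0.00807) against controls and 0.50 ± 0.081 (adjusted p = 0.00161) and 0.45 ± 0.11 (adjusted p = 0.0148) against heterozygotes. The 4 Eif2ak kinases were not called, nor were *Ppp1r15b* and *Ddit3*, at 0.090 and 0.22 against controls.

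Of 7 genes for poly(A) binding proteins and their regulators, 1 rose and 2 fell in homozygotes against controls, beside 7.19% and 8.03% of all genes. *Paip1*, for an activator, fell against controls (-0.35 ± 0.066, adjusted p = 0.00395) and heterozygotes (-0.23 ± 0.066, adjusted p = 0.0338). *Paip2*, for an inhibitor, rose in both comparisons (0.22 ± 0.052, adjusted p = 0.0123 and 0.21 ± 0.052, adjusted p = 0.0158). Its paralog *Paip2b* fell against controls (-0.24 ± 0.071, adjusted p = 0.0397) and was not called against heterozygotes (-0.23 ± 0.071, adjusted p = 0.0501), and *Pabpc1*, for the binding protein itself, rose against heterozygotes (0.30 ± 0.084, adjusted p = 0.0304) and was not called against controls (0.18 ± 0.084, adjusted p = 0.165). *Gfm1*, for the mitochondrial elongation factor that moves the mitochondrial ribosome, measured 109, 114 and 114 in controls, 118, 124 and 128 in heterozygotes and 78.5, 89.6 and 76.1 in homozygotes and fell against controls (-0.46 ± 0.068, adjusted p = 0.000759) and heterozygotes (-0.60 ± 0.068, adjusted p = 0.000145). The helicase gene *Ddx3y*, which also fell (-1.03 ± 0.29, adjusted p = 0.0314), is one of the Y-linked genes described above.

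Near-identical sequence elsewhere limits some of these values. By BLAST, with 95% identity or more over 200 bases or more, 21 of the 63 genes had such a stretch in another annotated gene, 12 had one in the table, and for 8 the copies in the table reached 10% or more of the gene's own value (*Eif1*, *Eif2b4*, *Eif3j*, *Eif4a1*, *Eif4ebp3*, *Eif5b*, *Eif3s6-ps2* and *Eif4a-ps4*). *Eif3s6-ps2* had 0 to 26 reads a library, and it and *Eif4a-ps4* were not called in any comparison.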

How the data were processed

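RNA-seq was measured in 9 libraries of E10.5 hearts. The table that the authors deposited holds a normalized signal value for each gene and library on NCBIM37 with Ensembl gene models, and the labels list CASAVA 1.8, cutadapt 1.6.1, RSEM 1.20, Bowtie2 and limma without their roles. Each deposited signal value equaled a whole number of reads plus 0.5 times the worth of 1 read, so that 100% of them gave whole reads back, within 0.01 of a read. Total reads ranged from 4294537 to 11629365 per library. The values had already been scaled between libraries by the authors, and the table held genes that passed a filter on low values.

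Columns named Het were taken as controls, DH as heterozygotes and KO as homozygotes. This goes against the sample titles, in which HET names the heterozygotes. DH stands for the double heterozygotes of the labels' protocol, which leaves Het for the controls, given in the study's methods as *Ctcf* fl/+ without the driver, and the means of these columns equaled the study's averages for the same groups in all of the 1998, 787 and 2205 genes compared for controls, heterozygotes and homozygotes (within a relative 0.001). Genes were named and measured in length from GENCODE M1, which held 13987 of the 14011 genes. Exonic length counted each base in any annotated exon of a gene once, over all its transcripts. Values were tested as log2(value + 0.5) with limma 3.58.1 in R 4.3.3, with 9 libraries and 3 groups in one fit, the prior variance following the mean, and p-values adjusted by Benjamini-Hochberg over 14011 genes. The ratio of *Eef1a2* to *Eef1a1* was tested with an exact permutation test in scipy 1.17.1. Libraries of a group are separate pools of hearts, and pairs of them differed by more than counting noise (chi-square of 3.22 to 7.15 for each degree of freedom). The genes, complexes and lists were chosen with earlier results of these data known.

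Library values are given for genes called in any comparison, for the highest gene of each complex and for sets of paralogs, and other genes are given by fold change or count. The 5 genes most like *Eef1a2* were taken by Pearson's r. Alternatives were other pseudocounts (0.1 and 1), filters at a mean of 1 and 10, quantile normalization, a fit of 2 groups, limma without the trend, edgeR 4.0.16 and DESeq2 1.42.0 on whole reads, removal of a length trend by loess (span 0.3), other thresholds, a replicate block and leaving out each library. Simulated data were used to try limma, edgeR, DESeq2, the removal of the length trend and the replicate block. Copies were searched with BLAST+ 2.17.0, and tables were made with Python 3.11.15. Promoter sequences are from RefSeq.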

Additional observations from a re-analysis of the deposited data

How the results depend on the processing

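Between homozygotes and controls, the 16 genes called became 8 in limma without the trend, 10 with the length trend removed and 7 at an adjusted p under 0.01, where 8.54%, 10.8% and 6.12% of all genes were called, and 8 to 15 with 1 library left out. The lowest count, 8, came without the control library of 6698891 reads and without the homozygote library of 11629365, with 7.49% and 9.04% of all genes. Between homozygotes and heterozygotes, the 13 called became 7 without the trend, 5 at an adjusted p under 0.01, with 7.59% and 5.15% of all genes, and 6 to 15 with 1 library left out, with 6 without the heterozygote library of 7946683 reads, 8 without that of 4294537 and 7 without the homozygote library of 11629365, with 8.97%, 8.73% and 7.3% of all genes. On the recovered reads DESeq2 called 12 higher and 3 lower there, with 10.2% of all genes called, beside 9 and 4 in the main fit, with 13.6%. Heterozygotes against controls gave 0 in all of them.

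Over 20 alternatives that kept the threshold, *Eif2s2*, *Eif3f*, *Eef1a2*, *Eef1b2*, *Eif2c1*, *Eif2c2* and *Eif2c3* were called each time between homozygotes and controls. The call was lost in 12 of the 20 for *Eif1* and for *Eef1g*, 10 for *Eif5a*, 9 for *Eif3h*, 6 each for *Eif3k* and *Eif3m*, 4 for *Eif3e*, 3 for *Eef1d* and 2 for *Eif3i*. Calls were gained in 4 for *Eif2b4* and for *Eif5a2*, for the latter with the replicate block among them (adjusted p = 0.0258), and in 2 for *Eef1a1* and for *Eif2c4*, the last over 19. *Eif2s3y* was called in 3 of them, with log2 fold changes of -1.01 without the control library of 8457617 reads and -1.05 without the homozygote library of 6139084. Against heterozygotes, the call was lost in 9 of 20 for *Eif5*, 8 for *Eif3i* and for *Eif3k*, 6 for *Eif3h*, 4 for *Eif1* and for *Eif2c2*, 2 for *Eif2b4* and 1 for *Eif2s2*, and gained in 2 for *Eif3m* and 1 each for *Eif1a*, *Eif1ax*, *Eif2s1*, *Eif4g1*, *Eif5a*, *Eef1a1*, *Eef1g* and *Eif2c4*. The ratio of *Eef1a2* to *Eef1a1* kept its direction, from -1.50 to -1.31 with 1 library left out.

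Signs turned for uncalled genes: with the length trend removed *Eif4a3* -0.037, *Eif4e* -0.013, *Eif4g1* 0.0086, *Eif4g3* 0.019, *Eif4ebp1* -0.058, *Eif4ebp2* -0.0092 and *Eif4enif1* 0.061, and with quantile normalization *Eif4a1* -0.10, *Eif4enif1* 0.018 and *Eef1a1* -0.14. With 1 library left out, the ranges that crossed 0 were -0.0028 to 0.13 for *Eif2a*, -0.0056 to 0.053 for *Eif4e*, -0.010 to 0.048 for *Eif4e2*, -0.028 to 0.052 for *Eif4g2*, -0.017 to 0.12 for *Eif4ebp2*, -0.073 to 1.03 for *Eif4ebp3* and -0.032 to 0.018 for *Eif4enif1*. The cause was not tested.

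The column numbers did not pair the libraries, since deviations from the group means correlated from -0.043 to 0.085 between libraries of the same number and from -0.095 to 0.12 between others. With the replicate block by this number, 14 genes were called in homozygotes against controls, 9 against heterozygotes and 0 between heterozygotes and controls. In that fit 12.5%, 11.1% and 0.107% of all genes were called, in the same order. The ratio of *Eef1a2* to *Eef1a1* stayed at -1.42. Depth limits genes with few reads, such as *Eif4ebp3*, *Eif2c4* and *Eif3s6-ps2*.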

Other observations

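*Gm9892*, a pseudogene with 99.5% identity to *Eif2s2* over 996 bases, measured 1.34, 3.91 and 1.53 in the controls and 0.0490, 0.0631 and 0.115 in the heterozygotes, values that correspond to 0 reads. In the homozygotes it measured 0.114 and 0.0846, again 0 reads, and 2.03 in replicate 3. Summed with *Eif2s2*, it left the homozygotes above the other libraries, at 302 to 362 beside 262 to 276 in controls and 268 to 276 in heterozygotes.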
